A study of Homo sapiens with 4 samples.

Results

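The genes described here encode proteins that write, erase, read or act on DNA methylation and histone marks in ARP-1 cells, an established line from human multiple myeloma. A total of 53 genes was listed by symbol, by no cut on a measured value but with earlier results of these data known. They were sorted by textbook role into DNA methylation (12 genes), polycomb repression (10), histone methylation (18), histone acetylation (9) and nucleosome remodelling with heterochromatin silencing (4). The expression table holds 52 of the 53 among 15201 genes, and EHMT2 is not analysed here. Of these, 51 had a mean of at least 1 FPKM (read fragments counted per transcript length and library size) and were tested together with 13411 genes in all, while BRD2 lay below that mean.

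RNA was sequenced from 2 libraries of parental, wild-type cells (WT) and from ARP-1 cells resistant to carfilzomib, a drug that inhibits the proteasome (CfzR, 2 libraries). The sources used here do not say how the resistant cells were selected, whether they are 1 clone or a pool, or whether the drug was present at harvest. The comparison asks whether transcripts of the chromatin machinery differ between resistant and parental cells, as context for the few genes that are switched off or on in resistance.

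DNA methylation is laid down on CpG dinucleotides by DNMT3A and DNMT3B, copied at replication by DNMT1 with its guide UHRF1, and oxidised for removal by the TET enzymes. Several, but not all, MBD proteins bind the methylated base. Polycomb complexes repress genes through methylation of lysine 27 of histone H3, made by EZH1 or EZH2 with EED and SUZ12, and through ubiquitylation of histone H2A, made by RNF2 with a partner such as BMI1. Trithorax-type KMT2 methyltransferases, the KDM6 demethylases and the acetyltransferases EP300 and CREBBP act in the opposite direction. In myeloma, several of these genes, KDM6A among them, are known targets of mutation.

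Sums of FPKM ran from 673265 in CfzR replicate 1 to 955284 in WT replicate 2, and medians over all genes from 7.50 to 7.75. All 9 plasma cell markers had a row, with a summed level between 5866 and 6654 FPKM in each library. Most of that sum was JCHAIN (3493 to 4601 FPKM), and CD79A was under 1 FPKM in each library. Of 12 markers of other cell types, NCAM1, which myeloma cells can express, and KRT18 had a row, with a summed level between 8.23 and 11.7 FPKM. The difference of CfzR replicate 1 from the WT mean on the log2 scale was correlated with transcript length across 12896 genes (Spearman 0.38) and across the 51 tested members (0.31), whereas for CfzR replicate 2 the values were -0.0147 and -0.00525. The difference between the WT libraries had correlations of 0.15 over all genes and 0.40 over the members. These are descriptions over genes that share libraries. The members are long genes, with a median transcript length of 5463 bases against 2855 for all genes. Values in both CfzR libraries are therefore given for many members, and the others are given by their fold change alone. Such a fold change can hide a disagreement of the CfzR libraries. Against the WT mean, DOT1L was at 0.28 in replicate 1 and -0.18 in replicate 2, and CHD4 at -0.39 and 0.24.

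No chromatin regulator differed between resistant and parental cells past the threshold of 0.05 on the limma adjusted p. The count was 0 of 51 members, beside 47 of 13411 genes overall (0.35%). With no adjustment, 3 members had a p under 0.05, the methylation guide UHRF1 and the demethylase KDM6A on the higher side and the demethylase KDM5A on the lower side. Over all genes 11.1% had an unadjusted p under 0.05, 5.32% on the higher and 5.81% on the lower side, so the members' share was below the background. Both CfzR libraries lay on 1 side of both WT libraries for 19 of 51 members (37.3%), against 44.7% of all genes. They lay above WT for 8 members (22.1% of all genes) and below for 11 (22.6% of all genes).

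The members' median log2 fold change, on the log2(FPKM + 1) scale, was 0.05, against -0.02 for all genes tested. Fold changes ran from -0.79 for KDM5A to 0.74 for UHRF1, whereas each of the 47 genes past the threshold had an absolute change of at least 1.45. The 95% interval of the fold change lay within 1 log2 unit of 0 for 42 members. For the other 9, UHRF1, TET1, RNF2, KDM5A, KDM6B, KMT2D, NSD1, SMARCA4 and TRIM28, it reached beyond 1 in 1 direction, so a change of that size in that direction is within the interval.

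**Figure D1:**
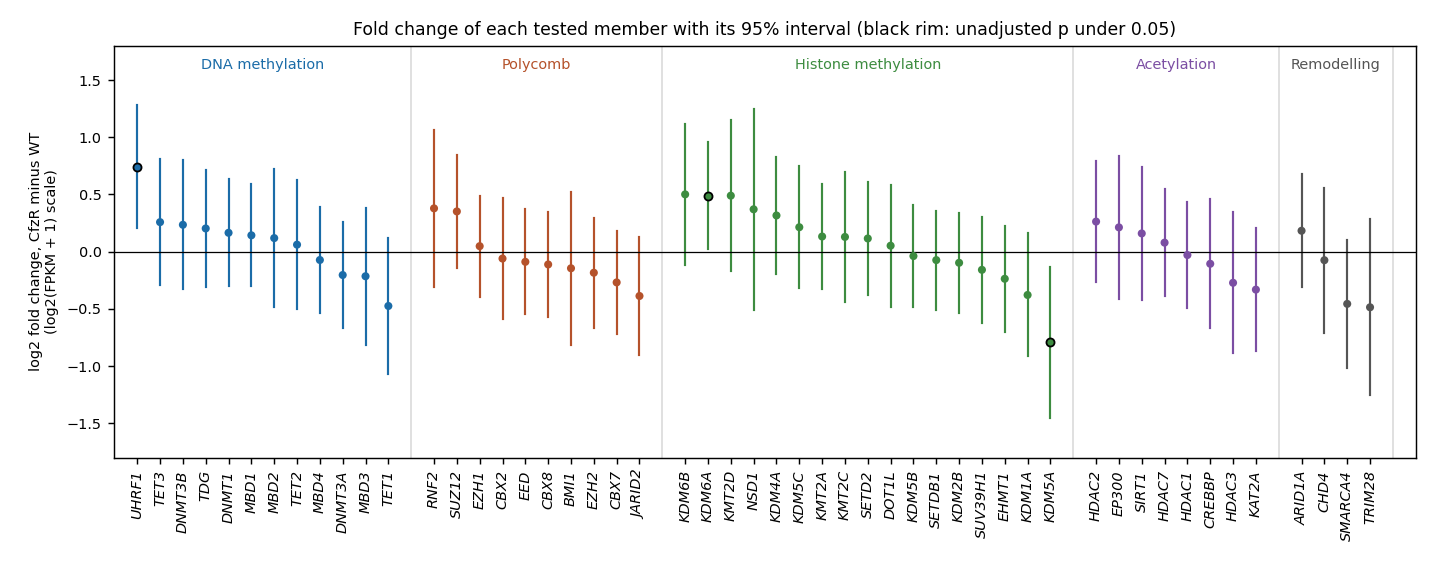
Log2 fold change of each of the 51 tested members (points, CfzR minus WT on the log2(FPKM + 1) scale) with its 95% interval from limma (bars), by role. Intervals of UHRF1, KDM6A and KDM5A do not cross 0 before adjustment, and none of the 51 passed after adjustment over 13411 genes.

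Mean levels of the members ran from 0.617 to 452.8 FPKM. BMI1, a partner of RNF2 in polycomb complex 1, was the most abundant, at 456 and 489 FPKM in the WT pair against 503 and 363 in the CfzR pair, above 98.3% of all genes. GENCODE 29 places the read-through gene COMMD3-BMI1 over it on the same strand, so reads of that transcript may be counted to BMI1. The corepressor TRIM28 (304.7 FPKM on average), the methyl-CpG-binding protein homologue MBD3 (137 FPKM) and the nucleosome remodeller SMARCA4 followed. At the other end stood TET2, TET1, TET3 and EP300. Other genes with a row overlap 5 members on the same strand, among them MBD3 (AC005943.1), TET1 (COX20P1) and DNMT1. BRD2, a bromodomain reader of acetylated histones, was lowest, at 0.639 and 0.753 FPKM in the WT pair against 0.591 and 0.486 in the CfzR pair. BRD2 and EHMT2 both lie in the major histocompatibility region of chromosome 6. Between 28.5 and 33.5 Mb (GRCh38), 6 of 181 protein-coding genes of GENCODE 29 had a row (3.31%), against 55.1% elsewhere, so the level of BRD2 is uncertain.

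**Figure D2:**
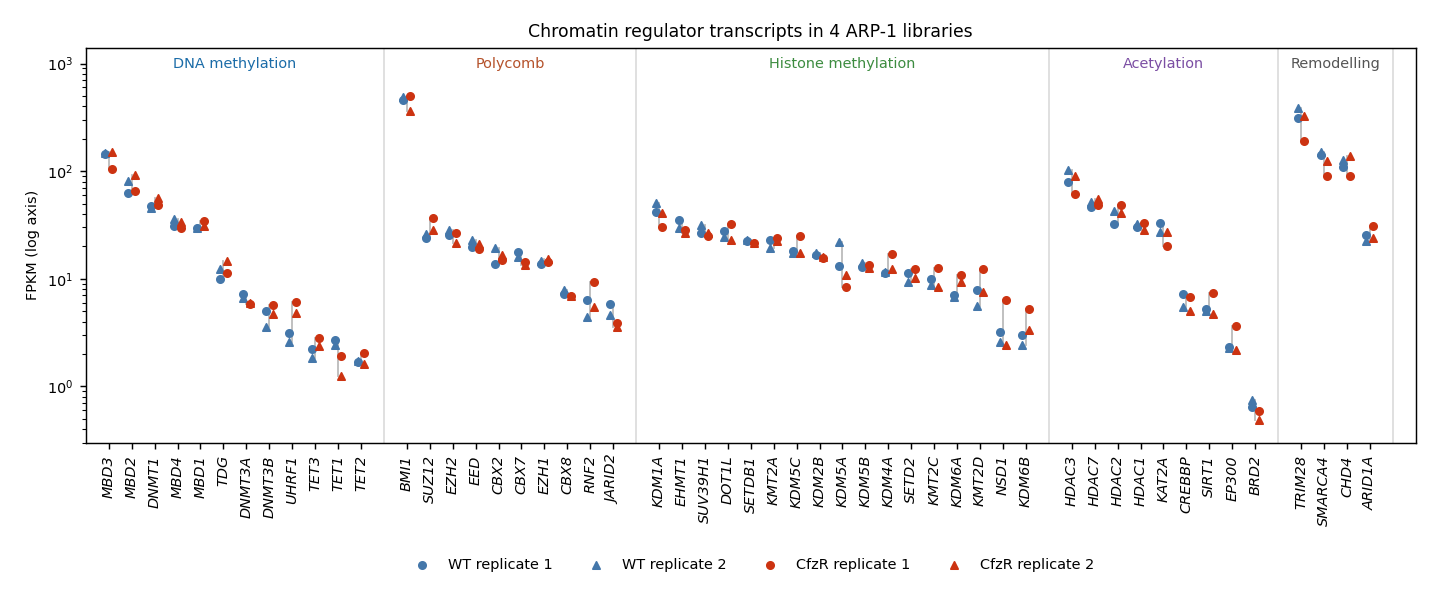
FPKM on a log axis for the 52 measured members in the 4 libraries, grouped by role and ordered by mean. Blue points are WT and red points CfzR (circle for replicate 1, triangle for replicate 2); means ran from 0.617 FPKM for BRD2 to 452.8 for BMI1, and the groups lay close together for most genes.

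CpG content was described in promoter windows of RefSeq (GRCh38.p14), from 250 bases before to 50 bases after the annotated start, because CpG is the substrate of the enzymes above. Methylation itself was not measured. Of the 52 members, 32 matched a window, with a median of 30 CpG per window and a median observed to expected CpG ratio of 0.86 (the count of CpG relative to that expected from the C and G content). Over 6979 genes of the table with a window the medians were 27 and 0.86. A ratio of at least 0.6 was found in 31 of the 32 members (96.9%) and in 87.3% of all genes with a window. DNMT3B was the exception, with 3 CpG and a ratio of 0.12 in a window that lies inside the gene as GENCODE 29 draws it (32762385 to 32809356 on chromosome 20), so another start of this gene lies outside it. The windows of DNMT1 (gene at 10133345 to 10231286 on chromosome 19) and CST3 (23626706 to 23638473 on chromosome 20) also lie inside their genes. The windows below belong to KDM5A and KDM6A, 2 of the 3 members with an unadjusted p under 0.05 (the third, UHRF1, is named only), to the polycomb core gene SUZ12, to DNMT1 and DNMT3B, and to CST3, the 1 switched gene with a window. Each is written 5′ to 3′ on the gene's strand, with every CpG in capitals.
KDM5A (chr12:389271-389570, minus strand, 20 CpG): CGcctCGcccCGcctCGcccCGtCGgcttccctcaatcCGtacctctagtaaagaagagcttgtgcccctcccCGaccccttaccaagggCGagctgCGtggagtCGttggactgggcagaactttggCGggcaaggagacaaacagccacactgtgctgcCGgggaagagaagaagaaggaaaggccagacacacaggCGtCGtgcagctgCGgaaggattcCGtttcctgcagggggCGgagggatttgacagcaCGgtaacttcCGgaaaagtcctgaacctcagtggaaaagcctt
KDM6A (chrX:44872938-44873237, plus strand, 29 CpG): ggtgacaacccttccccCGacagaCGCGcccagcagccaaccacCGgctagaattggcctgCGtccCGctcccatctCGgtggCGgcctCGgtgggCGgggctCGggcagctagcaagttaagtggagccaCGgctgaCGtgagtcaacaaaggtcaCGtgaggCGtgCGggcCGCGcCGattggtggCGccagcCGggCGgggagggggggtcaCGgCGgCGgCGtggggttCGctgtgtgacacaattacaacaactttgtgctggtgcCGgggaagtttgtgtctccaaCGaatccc
SUZ12 (chr17:31936757-31937056, plus strand, 40 CpG): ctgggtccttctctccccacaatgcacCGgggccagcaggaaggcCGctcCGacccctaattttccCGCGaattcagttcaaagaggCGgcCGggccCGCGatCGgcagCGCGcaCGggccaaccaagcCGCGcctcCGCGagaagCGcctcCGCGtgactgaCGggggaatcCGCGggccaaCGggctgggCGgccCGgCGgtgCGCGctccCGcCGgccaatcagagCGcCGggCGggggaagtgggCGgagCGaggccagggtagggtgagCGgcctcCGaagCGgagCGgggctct
DNMT1 (chr19:10194904-10195203, minus strand, 30 CpG): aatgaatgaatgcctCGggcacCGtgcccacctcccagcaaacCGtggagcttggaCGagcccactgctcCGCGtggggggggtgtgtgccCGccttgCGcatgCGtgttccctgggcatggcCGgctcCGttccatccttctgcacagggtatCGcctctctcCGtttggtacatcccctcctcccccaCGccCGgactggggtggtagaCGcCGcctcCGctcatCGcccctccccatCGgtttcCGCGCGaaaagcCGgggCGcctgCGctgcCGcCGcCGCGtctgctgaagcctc
DNMT3B (chr20:32779602-32779901, plus strand, 3 CpG): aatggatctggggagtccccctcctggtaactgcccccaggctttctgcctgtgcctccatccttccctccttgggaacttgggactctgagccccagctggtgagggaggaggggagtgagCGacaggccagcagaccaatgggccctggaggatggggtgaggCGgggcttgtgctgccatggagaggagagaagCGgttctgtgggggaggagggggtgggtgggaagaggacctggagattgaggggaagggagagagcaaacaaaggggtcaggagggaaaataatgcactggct
CST3 (chr20:23637906-23638205, minus strand, 21 CpG): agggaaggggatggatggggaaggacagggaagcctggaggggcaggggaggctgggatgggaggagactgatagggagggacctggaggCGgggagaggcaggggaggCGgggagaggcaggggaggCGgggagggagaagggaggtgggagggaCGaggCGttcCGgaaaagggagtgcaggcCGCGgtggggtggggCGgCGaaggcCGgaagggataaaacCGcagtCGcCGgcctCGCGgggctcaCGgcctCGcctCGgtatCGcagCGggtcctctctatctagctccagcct

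Among the 12 DNA methylation genes, 0 passed the threshold, 8 had positive and 4 negative fold changes, and the median was 0.13. UHRF1, which brings DNMT1 to newly replicated DNA, had the largest positive change of all members. It stood at 3.10 and 2.57 FPKM in the WT pair against 6.08 and 4.78 in the CfzR pair, a mean of 2.84 ± 0.375 against 5.43 ± 0.919 (SD, n = 2 each). Both resistant libraries lay above both parental ones, 1.91-fold on means (log2 fold change 0.74, SE 0.23, limma adjusted p = 0.304). The change was 0.79 with the trends of transcript length and GC content removed and 0.59 without CfzR replicate 1. The maintenance enzyme DNMT1 itself was far more abundant, at 47.3 and 45.5 FPKM in the WT pair against 48.0 and 56.6 in the CfzR pair. Its CfzR libraries also lay above WT, but by 1.13-fold on means (log2 fold change 0.17, 95% interval -0.30 to 0.63, limma adjusted p = 0.754), and most of the gap came from CfzR replicate 2. GENCODE 29 places S1PR2 over DNMT1 on the same strand.

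The de novo enzymes had low levels. DNMT3A stood at 7.18 and 6.65 FPKM in the WT pair against 5.76 and 5.98 in the CfzR pair, with both resistant libraries slightly lower (log2 fold change -0.20, limma adjusted p = 0.700). DNMT3B stood at 5.06 and 3.56 FPKM in the WT pair against 5.74 and 4.68 in the CfzR pair, and the groups overlapped (0.24, adjusted p = 0.715).

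The TET dioxygenases, which start demethylation, were among the least abundant members, and their fold changes differed in sign. TET1 stood at 2.69 and 2.42 FPKM in the WT pair against 1.92 and 1.24 in the CfzR pair, lower in both resistant libraries by 1.62-fold on means (log2 fold change -0.47, SE 0.25, limma adjusted p = 0.519). That change was -0.62 with the length and GC trends removed. TET3 stood at 2.22 and 1.82 FPKM in the WT pair against 2.84 and 2.39 in the CfzR pair, higher in both (0.26, adjusted p = 0.680). TET2 stood at 1.67 and 1.72 FPKM in the WT pair against 2.02 and 1.62 in the CfzR pair, with overlapping groups. No gene of the 3 passed, and at these levels the pseudocount of 1 shrinks the fold changes.

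The listed glycosylases and MBD genes had small fold changes. TDG, which excises the oxidised base, had a log2 fold change of 0.20, and MBD4, a glycosylase of mismatched CpG, one of -0.07. MBD1 stood at 29.4 FPKM in both WT libraries and at 34.5 and 30.7 in CfzR (0.14, limma adjusted p = 0.774). The CfzR libraries disagreed on MBD2 and MBD3, members of alternative NuRD repressor complexes. MBD3 stood at 145 and 147 FPKM in the WT pair against 104 and 152 in the CfzR pair, so 1 resistant library was lower and the other was not. MBD2 stood at 62.0 and 81.7 FPKM in the WT pair against 65.1 and 91.9 in the CfzR pair, and its groups overlapped.

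Of 10 polycomb genes, 0 passed, 3 had positive and 7 negative fold changes, and the median was -0.10. The 2 subunits that hold the methyltransferase complex together differed in sign: SUZ12 stood at 24.1 and 26.1 FPKM in the WT pair against 36.6 and 28.4 in the CfzR pair, whereas EED stood at 19.7 and 22.9 FPKM in the WT pair against 19.0 and 20.9 in the CfzR pair. SUZ12 was higher in both resistant libraries, 1.30-fold on means (log2 fold change 0.35, SE 0.21, limma adjusted p = 0.554), and the change was 0.17 without CfzR replicate 1 as well as with the length and GC trends removed. EED overlapped between groups (-0.09, adjusted p = 0.870), and its change was -0.36 with the length and GC trends removed. The catalytic subunit EZH2 stood at 25.7 and 28.4 FPKM in the WT pair against 26.4 and 21.3 in the CfzR pair (-0.18, 95% interval -0.66 to 0.30). Its alternative EZH1 was steady, at 13.8 and 14.6 FPKM in the WT pair against 14.2 and 15.3 in the CfzR pair (0.05, 95% interval -0.39 to 0.49).

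JARID2, which recruits the EZH complexes, stood at 5.77 and 4.6 FPKM in the WT pair against 3.87 and 3.55 in the CfzR pair. Both resistant libraries were below WT by 1.40-fold on means, and CfzR replicate 2 was the lower (log2 fold change -0.39, SE 0.22, limma adjusted p = 0.538). In complex 1, the reader CBX7 stood at 17.7 and 15.9 FPKM in the WT pair against 14.2 and 13.4 in the CfzR pair (-0.27, adjusted p = 0.603). CBX8 was also lower in both, at 7.21 and 7.86 FPKM in WT and 6.89 in each CfzR library (-0.11). CBX2 overlapped. The ubiquitin ligase RNF2 stood at 6.28 and 4.42 FPKM in the WT pair against 9.31 and 5.47 in the CfzR pair, so its mean difference came from CfzR replicate 1 (0.72 above the WT mean on the log2 scale, against 0.04 in replicate 2). BMI1 was overlapping between groups (log2 fold change -0.15, adjusted p = 0.851).

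Histone methylation genes showed the widest spread, with 0 of 17 past the threshold, 10 positive and 7 negative, and a median of 0.12. The median against WT was 0.24 in CfzR replicate 1 and -0.07 in CfzR replicate 2. KDM5A, which removes methylation from lysine 4 of histone H3 at active promoters, had the largest absolute log2 fold change of any member on the log2(FPKM + 1) scale, although UHRF1 had the larger fold of means. It stood at 13.2 and 22.1 FPKM in the WT pair against 8.30 and 10.8 in the CfzR pair, lower in both resistant libraries by 1.85-fold on means (log2 fold change -0.79, SE 0.28, 95% interval -1.45 to -0.14, limma adjusted p = 0.367). The parental libraries themselves differed widely, and the change was -0.44 without WT replicate 2 and -1.14 without WT replicate 1. CCDC77 overlaps KDM5A on the opposite strand, and the use of strand in counting is not stated in the sources used here. Its relatives KDM5B (-0.04) and KDM5C (0.21) overlapped between groups.

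The X-linked demethylase KDM6A, which removes the polycomb mark from lysine 27, stood at 7.04 and 6.75 FPKM in the WT pair against 10.8 and 9.40 in the CfzR pair. Both resistant libraries were higher, 1.47-fold on means, and the gap was wide relative to the spread in each group (6.90 ± 0.208 against 10.1 ± 1.02, SD, n = 2 each). Its log2 fold change was 0.49 (SE 0.20, limma adjusted p = 0.426), and 0.39 with the length and GC trends removed. KDM6B, the inducible enzyme with the same activity, stood at 3.0 and 2.40 FPKM in the WT pair against 5.24 and 3.37 in the CfzR pair. It was higher in both resistant libraries (1.59-fold on means, log2 fold change 0.50, SE 0.26, adjusted p = 0.513), and the change was 0.24 without CfzR replicate 1. Neither of the 2 erasers of lysine 27 methylation passed over all genes.

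Other demethylases had fold changes of both signs. KDM1A, the LSD1 enzyme of corepressor complexes, stood at 41.4 and 50.6 FPKM in the WT pair against 30.3 and 40.4 in the CfzR pair, lower in both but by little in replicate 2 (log2 fold change -0.38, limma adjusted p = 0.556). KDM2B, which brings a polycomb complex to CpG islands, was lower by 1.07-fold on means (-0.10). KDM4A, an eraser of lysine 9 and lysine 36 methylation, stood at 11.4 and 11.5 FPKM in the WT pair against 16.9 and 12.4 in the CfzR pair, higher in both (0.32, adjusted p = 0.593).

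The 4 longest transcripts in the set belong to methyltransferases of lysine 4 and lysine 36 (KMT2D, KMT2C, KMT2A and NSD1), and each was highest in CfzR replicate 1. KMT2D stood at 7.81 and 5.55 FPKM in the WT pair against 12.3 and 7.59 in the CfzR pair, with replicate 2 inside the WT range (log2 fold change 0.49, SE 0.28, limma adjusted p = 0.541; 0.18 without CfzR replicate 1). NSD1, a writer of lysine 36 methylation, stood at 3.16 and 2.60 FPKM in the WT pair against 6.38 and 2.40 in the CfzR pair. Its direction therefore rested on 1 library: the log2 fold change was 0.37 with all libraries and -0.19 without CfzR replicate 1. KMT2C lay above the WT range in CfzR replicate 1 only (0.13), and KMT2A differed little (0.13). SETD2, the enzyme of lysine 36 trimethylation, stood at 11.4 and 9.33 FPKM in the WT pair against 12.4 and 10.2 in the CfzR pair (0.12, 95% interval -0.38 to 0.61).

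The 3 tested members that write the silencing mark on lysine 9 of histone H3 had negative fold changes. Other lysine 9 writers, looked up after their values were seen, did not all share the sign: PRDM2 was at 0.31, SUV39H2 at 0.17 and SETDB2 at -0.01. EHMT1 stood at 35.4 and 29.8 FPKM in the WT pair against 28.5 and 26.5 in the CfzR pair, lower in both (log2 fold change -0.24, limma adjusted p = 0.656). SETDB1 was lower by 1.05-fold on means, at 22.5 and 22.8 FPKM in the WT pair against 21.3 and 21.6 in the CfzR pair (-0.07, adjusted p = 0.886). SUV39H1 overlapped between groups (-0.16). DOT1L, which methylates lysine 79, had a log2 fold change of 0.05.

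**Figure D3:**
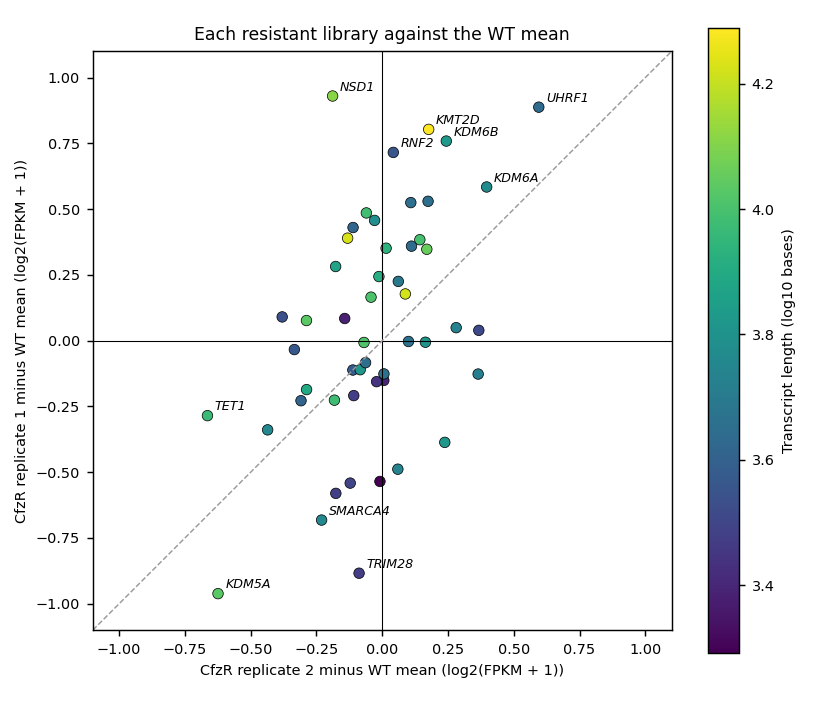
Difference of CfzR replicate 1 (vertical) and of CfzR replicate 2 (horizontal) from the WT mean for the 51 tested members, on the log2(FPKM + 1) scale, coloured by transcript length. UHRF1 and KDM6A lay above and KDM5A below 0 in both libraries, whereas NSD1, KMT2D, RNF2 and TRIM28 lay away from 0 mainly in CfzR replicate 1.

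The 8 tested acetylation genes held no member past the threshold and none whose groups were separate, with 4 positive and 4 negative fold changes and a median of 0.02. The coactivator EP300 stood at 2.32 and 2.25 FPKM in the WT pair against 3.60 and 2.15 in the CfzR pair, and CREBBP at 7.27 and 5.44 FPKM in the WT pair against 6.70 and 4.98 in the CfzR pair. Neither differed beyond the spread between libraries (log2 fold changes 0.21 and -0.11, limma adjusted p = 0.762 and 0.873). KAT2A, the GCN5 acetyltransferase, had a change of -0.33 (adjusted p = 0.594). Of the class I deacetylases, HDAC1 stood at 30.2 and 32.1 FPKM in the WT pair against 33.1 and 28.1 in the CfzR pair (-0.03, 95% interval -0.49 to 0.43). HDAC2 (0.26) and HDAC3 (-0.27) overlapped as well. HDAC7, a class IIa deacetylase of lymphoid cells, had a change of 0.08 and the NAD-dependent SIRT1 one of 0.16.

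Of the 4 remodelling and silencing genes, 3 had negative fold changes and 0 passed. SMARCA4, the ATPase of the SWI/SNF complex, stood at 142 and 150 FPKM in the WT pair against 90.5 and 124 in the CfzR pair. Both resistant libraries were lower, by 1.36-fold on means (log2 fold change -0.46, SE 0.24, limma adjusted p = 0.515), and the change was -0.23 without CfzR replicate 1. TRIM28, the corepressor that zinc finger proteins use to silence retroelements, stood at 314 and 388 FPKM in the WT pair against 189 and 328 in the CfzR pair. Here replicate 2 lay within the WT range, and the log2 fold change of -0.49 became -0.09 without CfzR replicate 1. The NuRD ATPase CHD4 overlapped (-0.07), and so did the SWI/SNF subunit ARID1A, at 25.4 and 22.3 FPKM in the WT pair against 30.6 and 24.0 in the CfzR pair (0.18).

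Ratios of related genes within a library compare their levels per length and do not depend on library size. They are given for 10 pairs as descriptions, with no test and no background share for other pairs. KDM5A to KDM5C was 0.723 and 1.26 in WT and 0.333 and 0.614 in CfzR. DNMT3A to DNMT3B was 1.42 and 1.87 in WT and 1.00 and 1.28 in CfzR, so the FPKM of the 2 transcripts were closer in the CfzR libraries. HDAC1 to HDAC2 was 0.939 and 0.751 in WT and 0.679 and 0.685 in CfzR. EZH1 to EZH2 was 0.535 and 0.515 in WT and 0.536 and 0.719 in CfzR, with the lower CfzR value hardly above WT. KDM6A to KDM6B overlapped, at 2.34 and 2.81 in the WT pair against 2.07 and 2.79 in the CfzR pair. Within most of these pairs the 2 WT libraries also differed, and the paired genes differ in transcript length.

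**Figure D4:**
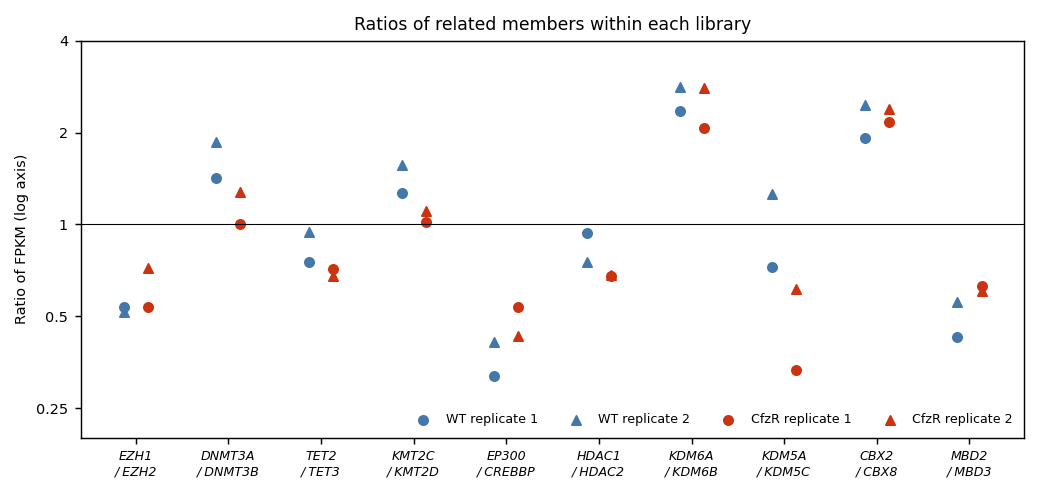
Ratio of FPKM of 10 pairs of related members in each library (log axis; blue WT, red CfzR; circle replicate 1, triangle replicate 2). KDM5A to KDM5C and DNMT3A to DNMT3B were lower in both CfzR libraries, and KDM6A to KDM6B and CBX2 to CBX8 overlapped.

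Further genes of the same pathways were tested in the same limma fit, with 0 past the threshold among 25 other DNA methylation genes, 25 polycomb, 38 histone methylation, 36 acetylation and 35 remodelling genes tested. Without adjustment, 3, 2, 1, 1 and 0 of them had a p under 0.05, beside 11.1% of all genes. The median log2 fold changes were -0.11, 0.00272, 0.05, -0.02 and 0.13. The other DNA methylation genes differed in sign from the members of that role: 18 of 25 were negative. Separate groups were found for 16 of the 25 (64%), against 44.7% of all genes. CfzR lay below WT for 11 of the 25, against 22.6% of all genes. The difference between the 2 lists was not tested. The 3 other DNA methylation genes with an unadjusted p under 0.05 were MBD5, CXXC4 and GADD45A. GADD45A stood at 19.8 and 19.7 FPKM in the WT pair against 25.4 and 30.7 in the CfzR pair (log2 fold change 0.48, limma adjusted p = 0.431). HELLS, the remodeller that supports DNA methylation, stood at 8.16 and 7.68 FPKM in the WT pair against 12.2 and 9.81 in the CfzR pair. Its log2 fold change was 0.42, with an unadjusted limma p of 0.0776 (adjusted p = 0.496). MBD5, of the MBD family, stood at 4.33 and 4.53 FPKM in the WT pair against 2.60 and 1.95 in the CfzR pair (-0.74, adjusted p = 0.306). CXXC4, a CpG-binding partner of TET2, stood at 0.654 and 0.838 FPKM in the WT pair against 2.16 and 1.73 in the CfzR pair (0.75, adjusted p = 0.343).

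Among the other polycomb genes, complex 1 held 1 gene of each sign with an unadjusted p under 0.05. CBX6 stood at 14.2 and 14.5 FPKM in the WT pair against 22.5 and 21.5 in the CfzR pair (0.58, limma adjusted p = 0.318), in contrast to CBX7 and CBX8 above. PCGF6, which takes the place of BMI1 in a variant complex, stood at 7.43 and 8.10 FPKM in the WT pair against 4.93 and 4.07 in the CfzR pair (-0.68, adjusted p = 0.304). The lysine methyltransferase SETD7 stood at 10.1 and 9.08 FPKM in the WT pair against 18.5 and 14.1 in the CfzR pair (0.70, adjusted p = 0.304). The deacylase SIRT5 stood at 7.0 and 7.50 FPKM in the WT pair against 3.51 and 4.34 in the CfzR pair (-0.75, adjusted p = 0.271). Each of these 4 had its CfzR libraries on 1 side of WT, which naming genes by a small p favours. Over all genes that share was 44.7%. Since UHRF1, DNMT1 and HELLS vary with proliferation, 20 genes of the cell cycle were read beside them: 0 passed, and the median log2 fold change was 0.10. Positive fold changes were found for 13 (65%), against 47.1% of all genes. Groups were separate for 11 of the 20 (55%), against 44.7% of all genes. CfzR lay above WT for 9 (22.1% of all genes) and below for 2 (22.6% of all genes). The part of the cell cycle genes in the values of UHRF1 was not tested.

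Genes switched off or on were few, and none was a chromatin member. With at least 5 FPKM in both libraries of 1 group and under 0.5 in both of the other, 4 genes were off in CfzR: CST3, LINC02780, OVAAL and the pseudogene RPL39P17. Another 6 were on: ABCB4, SLAMF7, GNAI1, LHFPL6, ENSG00000273014 and the pseudogene ATP5F1EP2. All 10 passed the limma threshold, which the rule for choosing them favours. CST3 encodes cystatin C, an inhibitor of cysteine proteases; its WT libraries held 71.6 and 70.5 FPKM, and each CfzR library lists it at 0. Its promoter window, printed above, holds 21 CpG with an observed to expected ratio of 0.73, against a median of 0.86 for the members.

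Targets often silenced by the 2 systems were read as further context. Of 70 germline genes that DNA methylation is known to keep silent, 10 had a row and 8 were tested, with 0 past the threshold and 2 at an unadjusted p under 0.05, beside 11.1% of all genes. Fold changes were positive for 4 and negative for 4. MAGEA1 stood at 8.84 and 8.10 FPKM in the WT pair against 16.1 and 16.9 in the CfzR pair (log2 fold change 0.88, SE 0.19, limma adjusted p = 0.152). MAGEB1 stood at 21.0 and 22.0 FPKM in the WT pair against 37.3 and 39.4 in the CfzR pair (0.81, SE 0.18, adjusted p = 0.183). Both were higher in each resistant library, by nearly equal amounts in replicates 1 and 2. MAGEA3 (0.14) and MAGEA6 (0.41) were also above WT in both, although members of this X-linked family share much sequence and their values are uncertain. The 4 negative ones, CSAG3 (-0.23), PAGE2B (-0.16), PAGE5 (-0.05) and SYCP3 (-0.24), overlapped between groups. MAGEA10, not tested because of its low mean, had 1.1 and 1.2 FPKM in the CfzR pair, and the WT columns list it at 0.

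HOX genes are classical polycomb targets. Of 39, 14 had a row and 11 were tested, with 0 past the threshold and 1 at an unadjusted p under 0.05, beside 11.1% of all genes. HOXB9 stood at 126 and 121 FPKM in the WT pair against 90.4 and 85.5 in the CfzR pair (log2 fold change -0.49, SE 0.20, limma adjusted p = 0.440). HOXB6 was lower in both resistant libraries as well (-0.45), and HOXC4 was higher in both, at 3.20 and 3.40 FPKM in the WT pair against 4.72 and 4.58 in the CfzR pair (0.39). Median log2 fold changes were -0.07 over the HOX genes and 0.04 over the germline genes.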

How the data were processed

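Gene expression was measured by RNA sequencing in 4 libraries of ARP-1 cells. The authors deposited 1 table of FPKM values, with 1 column per library. Per the submitters' processing notes, STAR and Cufflinks were used. Versions, genome build, annotation and use of strand are not stated in the sources used here. The columns named for a control were assigned to WT, the only other group. FPKM hold no counts, so the depth is unknown, and intervals from counting cannot be had.

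Symbols were matched by Ensembl ID for 15027 of 15201 genes. Positions, transcript length (longest transcript) and GC content are from GENCODE 29. Genes with a mean under 1 FPKM were left out, the others were put on the log2(FPKM + 1) scale, and CfzR was set against WT by limma 3.58.1 under R 4.3.3 (mean-variance trend, two-sided, Benjamini-Hochberg adjustment over 13411 genes). Folds are ratios of mean FPKM. The fit was tested on simulated data. The labels do not say whether replicates are separate cultures. The p-values therefore reflect the spread among these 4 libraries, which may be technical. Values are printed per library for members with an unadjusted p under 0.05, for members with separate groups and an absolute log2 fold change of at least 0.4, and for a fixed set of core genes. Other members are given to complete their group. From each further list, up to 4 genes with the smallest p could be named. PRDM2, SUV39H2, SETDB2, CSAG3, PAGE2B, PAGE5 and SYCP3 fall outside this rule and were named after their values were seen. Members and lists were chosen with earlier results of these data known.

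Alternatives used a pseudocount of 0.1 or 5, all genes or those with a mean of at least 5 FPKM, trimmed-mean (TMM) and quantile scaling, no trend, a replicate block, removal of each library's length and GC trend (splines with 4 degrees of freedom), and leaving out each library.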

Additional observations from a re-analysis of the deposited data

How the results depend on the processing

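The count of 0 members past the threshold held under every alternative except the replicate block, where it was 2 (KDM5A, limma adjusted p = 0.00661, and UHRF1, 0.0406), and the block with the length and GC trends removed, an alternative added after seeing the data, where it was 1 (KDM5A, 0.0208). The replicate block also moved the count over all genes from 47 to 1242 (487 higher, 755 lower), and to 640 with the trends removed. It leaves 1 residual degree of freedom per gene. Same-numbered libraries deviated from their group means together (correlation 0.25 over 13411 genes), but the labels give no shared batch and there are only 2 pairs, so the numbers were not taken as pairs.

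Over all genes, 27 passed with a filter at 5 FPKM, where fewer genes were tested, and 16 to 260 with 1 library left out (260 without WT replicate 1, 148 without WT replicate 2, 16 without CfzR replicate 1, 17 without CfzR replicate 2). The members' median log2 fold change of 0.05 was -0.0491 with that filter, 0.0966 with quantile scaling and -0.00482 with the trends removed, and -0.0292 to 0.0391 with 1 library left out. No scaling moved the median of all genes by over 0.1. Without CfzR replicate 1, 12 of 51 members turned sign, among them NSD1 (-0.19, and 0.93 without CfzR replicate 2), the only 1 of 21 members with a change of at least 1 SE that turned under any alternative. The cause was not tested.

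Genes off in CfzR numbered 10 at levels of 2 and 0.2 FPKM, and 6 to 15 with 1 library left out (15 without WT replicate 1, 7 without WT replicate 2, 7 without CfzR replicate 2). Genes on numbered 3 at levels of 10 and 1 FPKM, and 7 to 12 with 1 library left out (12 without WT replicate 2, 9 without either CfzR library). A library left out leaves a lone library in its group, which is assumed to vary like the other group. With 2 libraries per group and unknown depth, small changes could not be resolved. Each of the 47 genes past the threshold had an absolute log2 fold change of at least 1.45. The SE was 0.25 for TET1, a low gene, and 0.33 for the abundant TRIM28.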
